A study of Mus musculus with 6 samples.

Results

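A set of 9 transcription factor genes, linked to glial progenitors and to quiet, mature glia, was followed at postnatal day 17 in the retina of C57BL/6J mice, with and without oxygen-induced retinopathy. They are Sox2, Sox8, Sox9, Hes1, Hes5, Nfia, Nfib, Nfix and Lhx2. Each was taken as the row of the deposited count table that carries its symbol, and each symbol had 1 row among the 54532 genes of the table. The normal group held 3 libraries and the group labelled OIR held 3, all of the WT genotype and the same age. OIR usually stands for oxygen-induced retinopathy, where high oxygen stunts the vessels of young pups and the tissue later runs short of oxygen in normal air. The sources used here do not give the oxygen schedule, and the labels do not say whether each library came from a separate animal, so p-values measure the spread between these samples only. OIR library 3 stood apart in lens genes, whose values are given with the libraries at the end, beside those of the sex of each library. The submitters' stated purpose was to look for transcripts tied to vessel growth driven by hypoxia.

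Müller glia are the main glial cells of the retina and arise late from the same progenitors as the retinal neurons. SOX2, SOX8 and SOX9 belong to the SOX family of HMG-box factors, and Sox2 and Sox9 stay on in Müller glia after development. HES1 and HES5 are basic helix-loop-helix repressors that Notch signalling switches on through its DNA-binding partner RBPJ, and they hold back neuronal differentiation. NFIA, NFIB and NFIX are nuclear factor I proteins that start glial programmes in the nervous system and help keep Müller glia quiescent, while LHX2 is a LIM-homeodomain factor that the developing retina needs and that Müller glia keep. None of the 9 is limited to Müller glia: Sox2 also marks some amacrine cells and astrocytes, Hes1 many vascular and neural cells, and the NFI genes several neuronal types.

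In OIR retina, 4 of the 9 genes rose (Sox9, Nfib, Sox2 and Sox8), 1 fell (Hes5), and 4 did not pass the test (Hes1, Nfia, Nfix and Lhx2). Calls rest on edgeR's quasi-likelihood test with Benjamini-Hochberg adjustment over the 17108 genes tested, at an adjusted p under 0.05. Over all genes tested, 11.1% were called higher, 8.73% were called lower and 19.8% were called in either direction. The count of 4 higher was 2 without normal library 3 (Sox9 and Nfib) and 2 without OIR library 1 (Sox9 and Sox2), and Sox8 missed the threshold in 7 of 14 alternative fits. Over all genes, those called lower numbered 1493, but 769 without normal library 3, 761 without OIR library 1 and 860 without OIR library 2, and those called higher numbered 1901, but 1237 without normal library 3. The median log2 fold change was −0.04 over the 9 genes and 0.01 over all genes tested. The median size of the change, with its sign dropped, was 0.36 over the 9 and 0.20 over all genes. With all 6 libraries the 3 SOX genes were called higher, while 1 of 2 HES genes fell and 1 of 3 NFI genes rose. Groups did not overlap for 6 of the 9 genes, 4 with OIR above and 2 (Hes5 and Nfix) with OIR below, where over all genes tested 36.8% did not overlap, 18.7% with OIR above and 18.1% below. At an adjusted p under 0.01, which 10.3% of all genes passed (6.52% higher and 3.78% lower), Sox9 and Nfib were higher and Hes5 was lower. In bulk tissue, fewer cells of a type and less RNA per cell cannot be told apart.

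The promoter of Hes5 is shown because Hes5 had the largest change of the 9 and is a textbook target of Notch through RBPJ. The RefSeq table for GRCm38.p6, the assembly that mm10 stands for, held a promoter for 6 of the 9 genes; Hes1, Nfib and Sox9 had none. The letters TGGGAA, the core of RBPJ sites, were searched on both strands in the 250 bases before each RefSeq start. Hes5 held the core 2 times, from 226 to 221 bases before the start on the reverse strand and from 82 to 77 bases before it on the forward strand. Of 32851 promoters of that length, 21.6% held the core at least once and 2.77% at least 2 times. The sequence below is chr4:154960673-154960922, plus strand, 5′ to 3′, with the cores in capitals.
Hes5: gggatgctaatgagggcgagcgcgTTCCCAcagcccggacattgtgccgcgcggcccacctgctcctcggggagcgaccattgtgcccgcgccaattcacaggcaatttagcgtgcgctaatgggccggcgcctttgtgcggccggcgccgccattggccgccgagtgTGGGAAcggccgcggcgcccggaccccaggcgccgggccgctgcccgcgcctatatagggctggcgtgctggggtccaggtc
Lhx2, which did not pass, held 1 core in each of its 2 listed promoters, and the stretch around the first, at chr2:38339031-38339076, plus strand, is shown to set beside Hes5.
Lhx2: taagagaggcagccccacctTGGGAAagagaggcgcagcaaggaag
Among the SOX genes that rose, Sox8 held the hypoxia response core ACGTG on both strands of 1 palindrome, whose matches overlap, from 152 to 147 bases before its start, and 16.6% of all promoters held that core. Its stretch is chr17:25570813-25570858, minus strand, with the palindrome in capitals.
Sox8: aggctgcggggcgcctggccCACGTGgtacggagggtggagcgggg
Also searched on both strands were the hypoxia core GCGTG (28.2% of promoters), the HES target letters CACNAG (36.7%), the STAT letters TTCNNNGAA (7.02%) and the TATA letters TATAAA (12.4%). Hes5 held GCGTG 2 times, the Nfix promoters held single matches of GCGTG and TTCNNNGAA and 2 of CACNAG, and the Sox2 and Nfia promoters held none of the 6 motifs. For some genes the RefSeq starts differ from the deposited gene positions. The Nfia window (chr4:97581693-97581942) lay far before the deposited start at 97772734. The Sox2 window ended at 34649994, before the deposited start at 34650405. The Nfix windows, from 84772876 to 84780332, and the second Lhx2 window, from 38351058, lay inside the deposited genes. A match describes letters in a window and not a bound site.

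Sox9 was the clearest rise. This SOX factor (ENSMUSG00000000567, chromosome 11, 112782224 to 112787760, plus strand) directs glial fate in the retina and spinal cord. Its level in CPM, the counts scaled to a common library size by TMM factors, was 26.3, 26.6 and 30.4 in normal libraries 1 to 3 and 48.2, 57.6 and 52.9 in OIR libraries 1 to 3. The lowest OIR value was well above the highest normal value. This was a 1.90-fold rise with a 95% interval of 1.65 to 2.20, or 0.93 ± 0.093 on the log2 scale (SE, edgeR adjusted p = 7.06e-05). The call held under all 14 alternative fits, in which the log2 fold change ranged from 0.86 to 1.00.

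Sox2, the progenitor and stem cell factor of the SOXB1 group (ENSMUSG00000074637, chromosome 3, 34650405 to 34652461, plus strand), rose by less. It had 32.6, 29.8 and 26.8 CPM in the normal libraries and 38.1, 44.4 and 38.0 CPM in the OIR libraries. The groups did not overlap, and OIR library 2 stood above OIR libraries 1 and 3, which were almost equal. The rise was 1.35-fold, with a 95% interval of 1.16 to 1.57 (edgeR adjusted p = 0.0119). It no longer passed without normal library 3 (log2 fold change 0.36, edgeR adjusted p = 0.0583) or without OIR library 2 (0.35, edgeR adjusted p = 0.0627), and over all alternatives its adjusted p ran from 0.00154 to 0.0627. Sox2 is a single-exon gene inside the long noncoding gene Sox2ot and shares 0 exon bases with it.

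Sox8, a relative of Sox9 in the SOXE group (ENSMUSG00000024176, chromosome 17, 25565892 to 25570686, minus strand), stood just inside the threshold. Its levels were 29.7, 26.5 and 24.7 CPM in normal retina and 38.3, 30.0 and 35.2 CPM in OIR retina. The groups did not overlap, but OIR library 2 came close to normal library 1. The change was 1.28-fold, with a 95% interval of 1.08 to 1.52 (edgeR adjusted p = 0.0472). In 7 of the 14 alternative fits it missed the threshold, among them limma-voom (adjusted p = 0.0527), and those without normal library 2 (edgeR adjusted p = 0.0872) or 3 (0.172) and without OIR library 1 (0.219) or 3 (0.136); over all alternatives the adjusted p ran from 0.0202 to 0.219. The antisense gene 2810468N07Rik covers 10.6% of its exon bases, and the sources used here do not say whether the counting told the strands apart.

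Sox9 was higher relative to both Sox2 and Sox8 in every OIR library than in any normal one. The log2 ratio of Sox9 to Sox2 within a library was −0.10 ± 0.251 in normal and 0.40 ± 0.0697 in OIR retina (SD, n = 3), and the exact two-sided permutation p was 0.1, the smallest that 3 against 3 allow. The ratio of Sox9 to Sox8 differed by 0.57 on the log2 scale, also with groups apart, while that of Sox8 to Sox2 differed by −0.08 with overlapping groups, and by 0.09 without OIR library 2. As shares of the summed SOX level per length, Sox9 went from 22.6% ± 3.04 to 29.5% ± 1.75 (SD, n = 3), Sox2 from 48.4% ± 2.07 to 45.0% ± 2.51, and Sox8 from 29.0% ± 1.03 to 25.6% ± 3.89. The sum itself was 28.3 to 31.8 CPM per kilobase in normal libraries and 42.5 to 45.2 in OIR libraries. Such ratios within 1 library do not depend on the scaling between libraries. Over the 7 pairs within families, the smallest exact p of 0.1 became 0.14 after Benjamini-Hochberg adjustment, so no pair could pass.

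**Figure D1:**
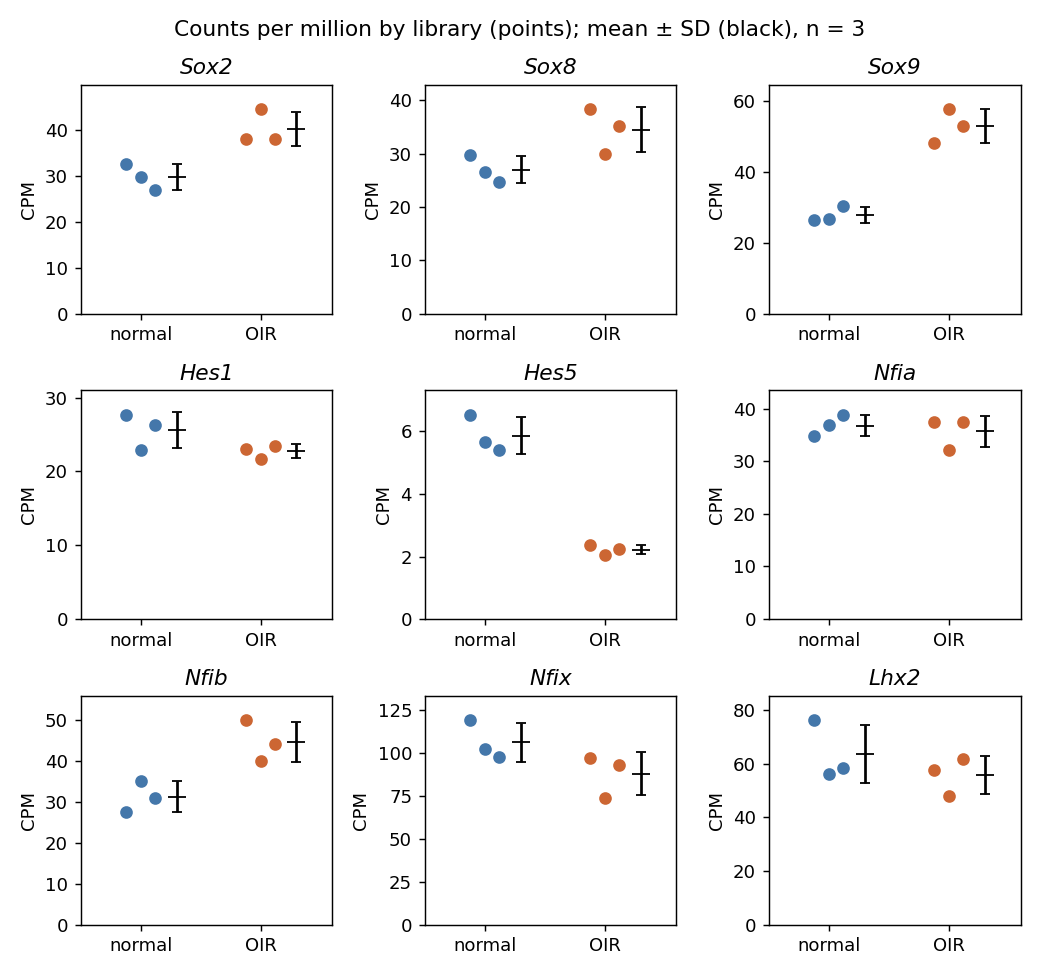
Level of each gene in CPM (vertical axis from 0) in the 3 normal (blue) and 3 OIR (orange) libraries, one point per library, with the mean ± SD in black. For Sox2, Sox8, Sox9 and Nfib the orange points all lie above the blue ones, for Hes5 and Nfix all below, and for Hes1, Nfia and Lhx2 they mix.

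Hes5 fell to 37.9% of its normal level. This Notch effector (ENSMUSG00000048001, chromosome 4, 154960923 to 154962371, plus strand) marks progenitors and, at a low level, Müller glia. It had 6.52, 5.65 and 5.39 CPM in the normal libraries and 2.35, 2.06 and 2.23 CPM in the OIR libraries. The OIR values lay close together and the groups were far apart. This was 2.64-fold lower with a 95% interval of 1.94 to 3.58, or −1.40 ± 0.199 on the log2 scale (SE, edgeR adjusted p = 0.00074). The counts behind it were the lowest of the 9, with 84 to 109 per normal library and 35 to 40 per OIR library. The call held in all 14 alternative fits, with log2 fold changes from −1.46 to −1.32. The gene Gm20421 on the other strand covers 31.8% of the Hes5 exon bases, and its own counts, 35 over the normal and 62 over the OIR libraries, did not pass the test (edgeR adjusted p = 0.173). Whether the counting told the strands apart is not stated, which limits the Hes5 levels and shares per length given below.

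Hes1, the more widely used HES repressor (ENSMUSG00000022528, chromosome 16, 30064384 to 30067796, plus strand), did not pass. Its levels were 27.6, 22.9 and 26.3 CPM in normal retina and 23.1, 21.7 and 23.5 CPM in OIR retina. The groups mixed, since normal library 2 lay among the OIR values. The 95% interval of its log2 fold change ran from −0.40 to 0.06 around −0.17 (edgeR adjusted p = 0.292), which leaves out a fall as large as that of Hes5. The log2 ratio of Hes1 to Hes5 was 2.11 ± 0.138 in normal and 3.29 ± 0.0563 in OIR retina (SD, n = 3), with every OIR library above every normal one and an exact permutation p of 0.1 (adjusted 0.14). Per length, Hes5 made up 25.5% ± 1.82 of the summed level of this pair in normal retina and 12.7% ± 0.467 in OIR retina.

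Nfib, which drives glial differentiation in the developing brain (ENSMUSG00000008575, chromosome 4, 82290173 to 82705750, minus strand), was the NFI gene that rose. It had 27.6, 35.2 and 30.9 CPM in normal and 49.9, 40.1 and 44.1 CPM in OIR libraries. The groups did not overlap, although both were spread. The rise was 1.43-fold, with a 95% interval of 1.21 to 1.70 (edgeR adjusted p = 0.00761). Without OIR library 1, its highest, the edgeR adjusted p was 0.0544, the one alternative of 14 in which it missed the threshold; the smallest was 6.88e-05.

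Nfix and Nfia, its relatives, did not pass. Nfix (ENSMUSG00000001911, chromosome 8, 84699876 to 84800344, minus strand) had 119, 102 and 97.5 CPM in normal and 97.3, 73.8 and 92.8 CPM in OIR libraries. The groups lay apart only narrowly, between normal library 3 and OIR library 1. Its log2 fold change was −0.27 with a 95% interval of −0.52 to −0.02 and an edgeR adjusted p of 0.119. It passed in 1 of the 14 alternatives, that with no filter on low counts (edgeR adjusted p = 0.0233), and the adjusted p reached 0.356 in another. Nfia (ENSMUSG00000028565, chromosome 4, 97772734 to 98118874, plus strand) had 34.7, 36.8 and 38.8 CPM in normal and 37.4, 32.2 and 37.4 CPM in OIR libraries, with overlapping groups. Its log2 fold change was −0.04 with a 95% interval of −0.24 to 0.15 (edgeR adjusted p = 0.784), and its sign turned without OIR library 2 (0.02).

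Relative to Nfia and to Nfix, Nfib was higher in all OIR libraries. The log2 ratio of Nfib to Nfix was −1.76 ± 0.300 in normal and −0.97 ± 0.0963 in OIR retina (SD, n = 3), and that of Nfia to Nfib 0.24 ± 0.152 and −0.32 ± 0.0901. Both had groups that did not overlap and an exact permutation p of 0.1 (adjusted 0.14). The ratio of Nfia to Nfix differed by 0.23 with overlapping groups (exact p = 0.2, adjusted 0.233). Nfib took 10.5% ± 1.68 of the summed NFI level per length in normal and 16.4% ± 0.818 in OIR retina, against 72.4% ± 3.35 and 65.5% ± 1.30 for Nfix.

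Lhx2 (ENSMUSG00000000247, chromosome 2, 38339281 to 38369733, plus strand), whose product keeps Müller glia in a resting state in the mouse retina, did not pass either. Its levels were 76.0, 56.2 and 58.4 CPM in normal and 57.6, 47.9 and 61.6 CPM in OIR libraries. Normal library 1 stood above the rest and the remaining values overlapped. The log2 fold change was −0.19 with a 95% interval of −0.47 to 0.09 (edgeR adjusted p = 0.342).

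**Figure D2:**
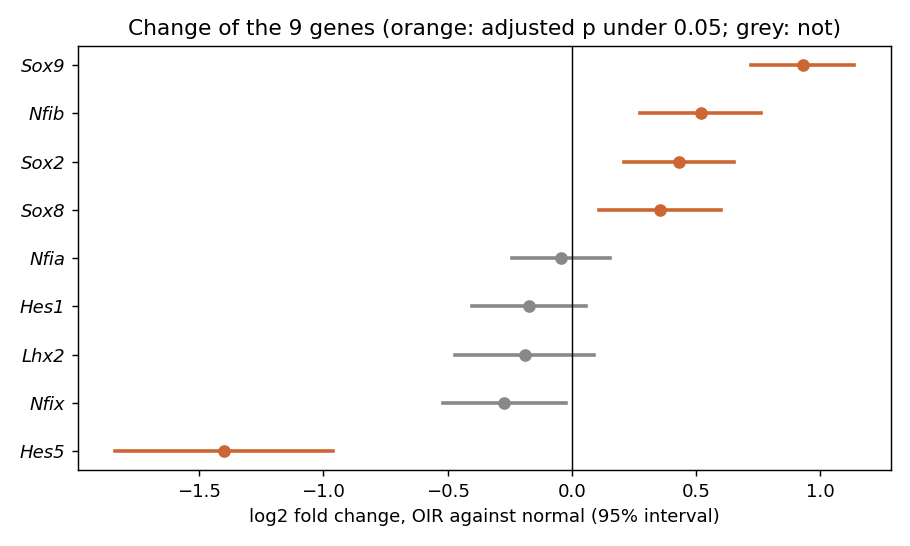
Log2 fold change of OIR against normal retina for each gene (horizontal axis; points) with its 95% interval (bars), from edgeR; orange marks an adjusted p under 0.05. Sox9 at 0.93 and Hes5 at −1.40 stand at the ends, and the intervals of Nfia, Hes1 and Lhx2 cross 0.

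Levels of different genes are comparable only per length, so CPM was divided by the deposited gene length in kilobases. In normal retina Lhx2 (14.5 ± 2.48), Sox2 (14.5 ± 1.4) and Nfix (14.4 ± 1.54) led and could not be ordered, and Hes1 (12.6 ± 1.2) overlapped Nfix (CPM per kilobase, SD, n = 3). Below them came Sox8 (8.65 ± 0.817), Sox9 (6.72 ± 0.555), Hes5 (4.29 ± 0.434), Nfia (3.38 ± 0.187) and Nfib (2.09 ± 0.254), each apart from its neighbours. Sox2 was alone at the top in OIR retina, at 19.5 ± 1.8. Sox9 came next at 12.8 ± 1.13, up from sixth place, but overlapped Lhx2 (12.7 ± 1.6), which overlapped Nfix (12 ± 1.7), and Nfix, Hes1 (11.2 ± 0.448) and Sox8 (11.1 ± 1.34) followed with overlapping neighbours. Nfia (3.27 ± 0.275) and Nfib (2.99 ± 0.329) also overlapped, and Hes5 was last at 1.62 ± 0.108. Summed over the 9 genes the level was 77.2 to 88.6 CPM per kilobase in normal and 83.9 to 88.7 in OIR libraries, so the groups overlapped in the sum while single genes moved.

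**Figure D3:**
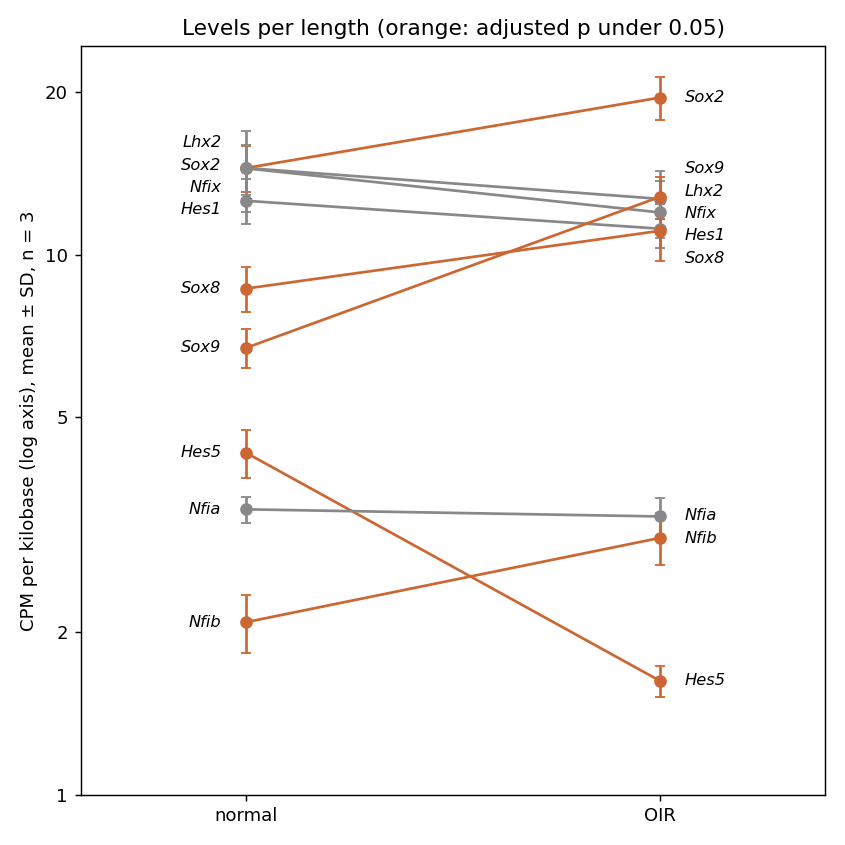
Mean ± SD (n = 3) of CPM per kilobase of gene length on a log axis in normal (left) and OIR (right) retina, one line per gene; orange marks an adjusted p under 0.05 in edgeR. Sox9 climbs from 6.72 to 12.8 into the upper group, and Hes5 drops from 4.29 to 1.62, below Nfib.

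Hes1 and Hes5 were set beside the rest of the Notch pathway, 27 genes of ligands, receptors, modifiers and effectors. Of these, 8 rose, 2 fell and 17 did not pass, with a median log2 fold change of 0.23. Of the 4 with the smallest adjusted p, the ligand gene Dll4 stood at 4.41 ± 0.814 CPM in normal and 13.5 ± 1.03 CPM in OIR retina (SD, n = 3), 3.04-fold higher. The receptor gene Notch3 was 2.97-fold and Notch4 2.54-fold higher, while the neuronal Notch ligand gene Dner fell by 0.73 on the log2 scale. Dll4 and Notch4 are mainly endothelial, and Notch3 is a mural gene that is also in the mural marker list. The marker list of endothelial cells had 9 of 10 genes higher and a summed level of 448 to 515 CPM in normal and 644 to 702 CPM in OIR libraries, and that of mural cells had 8 of 8 higher, with 256 to 294 and 667 to 758 CPM; no marker in either list was at 0 in all libraries. Their part in the Notch changes was not tested.

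Heyl and Hey2, HES-related repressors, rose, unlike Hes5. In bulk tissue, whether they and Hes5 changed in the same cells cannot be told. The part of endothelial and mural cells in their rise was not tested. Heyl was at 6.27 ± 1.14 CPM in normal and 12.2 ± 1.99 CPM in OIR retina (SD, n = 3), 1.94-fold higher, and Hey2 was 1.42-fold higher (edgeR adjusted p = 0.0037 and 0.0107). Hes6 and Hey1 had log2 fold changes of 0.27 and 0.19 and did not pass. Of the other receptor genes, Notch1 was 1.52-fold higher, at 47.8 ± 4.43 and 72.7 ± 7.47 CPM (edgeR adjusted p = 0.00172), and Notch2 had a log2 fold change of 0.02 and did not pass. The ligand gene Dll1 was 1.42-fold lower, at 15 ± 1.45 and 10.5 ± 0.375 CPM, and Rbpj had a log2 fold change of 0.10 and did not pass. Hey2, Hes6, Hey1, Notch1, Notch2, Dll1 and Rbpj were named after their values were seen.

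**Figure D4:**
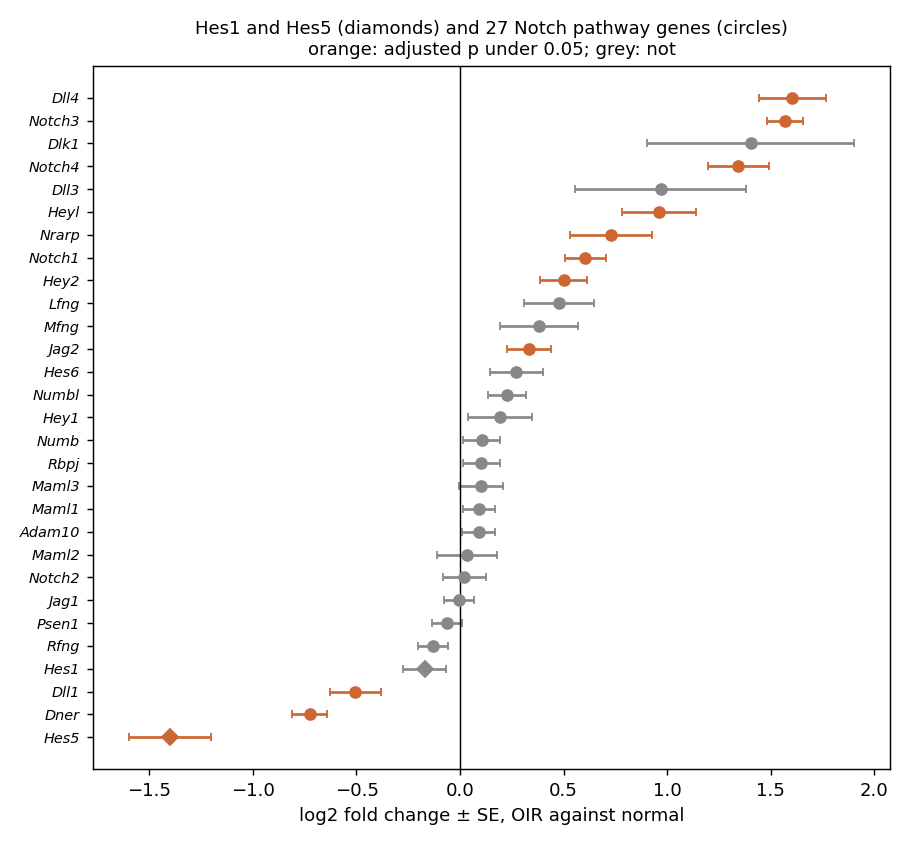
Log2 fold change ± SE (edgeR, OIR against normal) of Hes1 and Hes5 (diamonds) and the 27 other Notch pathway genes (circles); orange marks an adjusted p under 0.05. Hes5 lies at −1.40, below each of the 27, and Dll4 at 1.61 and Notch3 at 1.57 lie at the other end.

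Family relatives of the 9 served as a further comparison. Of 25 listed SOX, NFI, HES, HEY and LIM genes, 19 had enough counts to be tested; 4 rose and 3 fell, and Lhx8 had no counts in any library. The fourth NFI gene, Nfic, had a log2 fold change of 0.09 and did not pass. Sox5 was 1.47-fold lower, at 18.8 ± 0.134 CPM in normal and 12.8 ± 0.189 CPM in OIR retina (SD, n = 3), while Sox3, the SOXB1 relative of Sox2, was 4.03-fold higher at a low level, 0.350 ± 0.198 and 1.43 ± 0.222 CPM (edgeR adjusted p = 0.0106). The other SOX relatives tested, Sox4, Sox6, Sox10, Sox11, Sox12 and Sox13, did not pass. The LIM-homeodomain genes Lhx1 and Lhx3, found in horizontal cells and in bipolar and amacrine neurons respectively, were 1.83-fold and 1.66-fold lower. Nfic, Sox3 and the SOX relatives that did not pass were named after their values were seen.

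The 9 genes were also read against the cell type most of them are known from. Of 15 Müller glia markers, 6 fell, 1 rose and 8 did not pass; the potassium channel gene Kcnj10, the water channel gene Aqp4 and the lipid transporter gene Abca8a fell by 0.80, 0.73 and 0.99 on the log2 scale, and the ferroxidase gene Cp rose 2.09-fold. No Müller marker was at 0 in all libraries, and their summed level was 5961 to 6847 CPM in normal and 4792 to 5760 CPM in OIR libraries. The mean of their log2 CPM was 7.76, 7.63 and 7.63 in the normal and 7.54, 7.30 and 7.54 in the OIR libraries, a difference of −0.21 between groups. A gene at an unchanged level would therefore stand higher against that mean in OIR retina by the same amount. Relative to that mean, the log2 level of Sox9 was 1.14 higher in OIR retina, Nfib 0.73, Sox2 0.65 and Sox8 0.56, each with groups apart, and Hes5 differed by −1.14. Nfia was 0.17 higher with groups that just did not overlap, less than the shift of the mean itself. Hes1, Nfix and Lhx2 differed by 0.05, −0.06 and 0.03 with overlapping groups. These differences depended on how the markers were summarised. Another summary shifted all 9 genes by the same amount, since only the reference changed. With the median of the 15 markers, Hes1 was 0.39 higher and Nfix 0.29 higher, both with groups apart, and Lhx2 was 0.38 higher (exact permutation p = 0.1, 0.1 and 0.2). With Rlbp1, Glul and Slc1a3 alone, Hes1 was 0.24, Nfix 0.13 and Lhx2 0.22 higher (exact permutation p = 0.1, 0.3 and 0.2). The median also gave 0.52 for Nfia, 0.91 for Sox8, 0.99 for Sox2, 1.08 for Nfib, 1.49 for Sox9 and −0.79 for Hes5, and for Nfia the 3 genes gave 0.36. Each exact permutation p for groups that lay apart was 0.1, the smallest possible here. With the mean of the 15 markers it became 0.15 after adjustment over the 9 genes, and p-values from the other summaries were not adjusted.

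**Figure D5:**
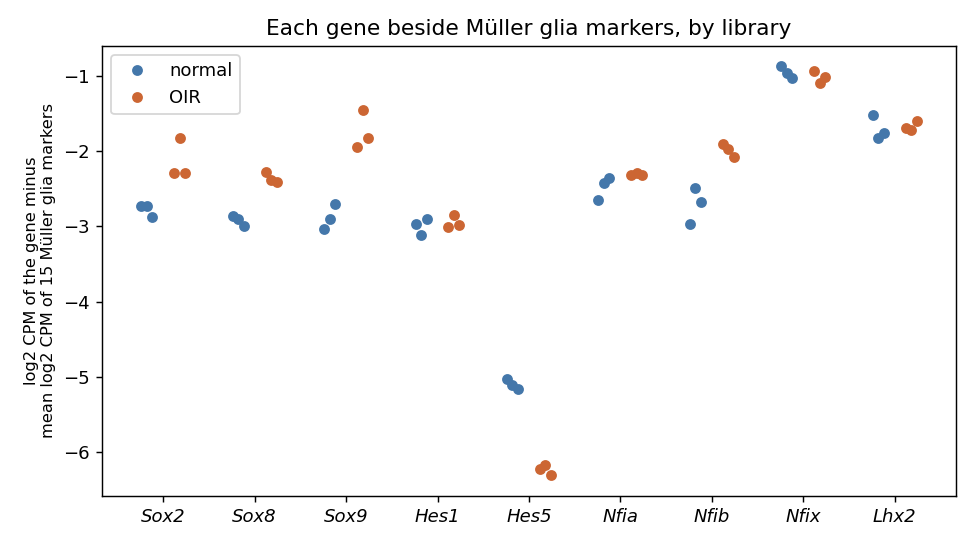
Log2 CPM of each gene minus the mean log2 CPM of 15 Müller glia markers in the same library (vertical axis), for 3 normal (blue) and 3 OIR (orange) libraries. Sox2, Sox8, Sox9 and Nfib lie higher and Hes5 lower in all OIR libraries, whereas Hes1, Nfix and Lhx2 overlap with this mean as the reference.

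Marker lists of other cell types that can express these genes changed as well. Astrocyte markers, of which 3 of 8 rose and 1 fell, had summed levels of 134 to 154 CPM in normal and 362 to 440 CPM in OIR libraries. Most of that gap was Gfap, at 22.1 ± 1.98 and 261 ± 44.2 CPM (SD, n = 3), which is also in the reactive glia list. Aldh1l1 was 2.75-fold and Pdgfra 1.76-fold higher, Slc39a12 was 2.06-fold lower, and 4 did not pass. Amacrine markers fell in 7 of 10 cases (1602 to 1854 against 1293 to 1413 CPM) and bipolar markers in 6 of 10 (2078 to 2162 against 1529 to 1625 CPM). Reactive glia genes rose in 12 of 12 cases, with summed levels of 351 to 366 and 1350 to 1793 CPM. Microglia markers rose in 6 of 10, with summed levels of 68.9 to 83.9 and 114 to 155 CPM. None of these markers was at 0 in all libraries, and their part in the changes of the 9 genes was not tested. Sox10, the oligodendrocyte relative of Sox8 and Sox9, stood at 1.08 ± 0.274 and 0.588 ± 0.156 CPM (SD, n = 3) and did not pass.

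The 3 genes whose library-by-library pattern was most like that of each called gene were found among 11777 or 11778 well-expressed protein-coding genes, by the largest difference in any of the 6 libraries between their log2 deviations from their own means. Sox9 was followed by Ptbp3, Sema6d and Anxa4 to within 0.0844 to 0.0922, and Sox2 by Gm45716, Stk40 and Rpl22l1 to within 0.0454 to 0.0756. For Sox8 these were Arhgef10, Arhgef19 and Homer3 (0.0665 to 0.0861), and for Nfib they were Rfc3, Nfe2l2 and Myo1g (0.0984 to 0.122). For Hes5 the nearest were Fam19a4, Rgr and Enpp2, at 0.215 to 0.228, a wider gap than for the others. Rgr, an opsin of Müller glia and pigment epithelium, had a log2 fold change of −1.41, and pigment epithelium and related markers fell in 4 of 8 cases, with summed levels of 141 to 259 CPM in normal and 89.0 to 106 CPM in OIR libraries.

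As for the libraries, total counts ran from 15818168 to 17163513, the 9 genes held 35 to 1988 counts each per library, and all 9 passed the filter on low counts. Rod markers summed to 44259 to 47769 CPM in normal and 36217 to 40537 CPM in OIR libraries, with 3 of 8 lower and 5 not passing. OIR library 3 carried 5350 CPM of lens markers against 3.35 to 357 CPM in the other libraries. It held 59 counts of Sox1, a SOX gene of the lens, against 0 to 3 in the others, and no lens marker passed. The Sox2 level was 38.0 CPM in OIR library 3, against 38.1 and 44.4 CPM in OIR libraries 1 and 2. Without OIR library 3 Sox2 had a log2 fold change of 0.46 (edgeR adjusted p = 0.0282). The part of lens tissue in the Sox2 values was not tested. By Xist and Y-linked counts, normal libraries 1 and 3 and OIR library 2 were male and the others female. Within males and within females the log2 CPM differences were 1.02 and 0.92 for Sox9, −1.47 and −1.26 for Hes5, 0.46 and 0.41 for Nfib, 0.59 and 0.35 for Sox2, 0.15 and 0.47 for Sox8, and −0.54 and −0.10 for Nfix. For Hes1, Nfia and Lhx2 they were negative in males (−0.31, −0.19 and −0.47) and slightly positive in females (0.02, 0.02 and 0.08), each with 1 library in one arm. With sex as a covariate Sox8 did not pass (edgeR adjusted p = 0.108), and the calls of the other 8 genes stayed as they were.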

How the data were processed

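RNA sequencing of 3 normal and 3 OIR mouse retina samples was deposited by the authors as raw counts per gene, with gene lengths in bases beside them. TRIzol RNA and the NEBNext Ultra RNA kit were used, per the labels' protocols. The submitters' processing notes name mm10, featureCounts 1.5.0-p3, HISAT2 2.0.5, fastp, DESeq2 1.20.0 and CASAVA 1.8, in no stated order. Annotation release, strand setting and read filters: not given in the sources used here. Columns were matched to samples by name: those with OIR, day and number to the OIR titles, the others at that day to the normal titles.

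The counts were tested with edgeR 4.0.16 (R 4.3.3): TMM scaling, filterByExpr (minimum count 10, total 15), quasi-likelihood test, no covariate. Standard errors are the log2 fold change over the square root of F. Log2 CPM used a prior count of 2. The most alike genes were sought among genes whose CPM averaged 5 or more over the 6 libraries. Ratios were tested by exact permutation. Gene positions matched the GENCODE vM21 annotation of mm10 for all 9 genes. Every pair of libraries in a group differed beyond counting noise (chi-square divided by its degrees of freedom, 7.20 to 23.1). The test was checked on simulated counts, and the check only required recovery of changes larger than any called among the 9 genes.

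The 9 genes and the 21 other lists were chosen with earlier results of these data known. All 9 were named; each other list could name up to 4 genes, by smallest adjusted p, or by highest CPM if fewer than 2 of the list passed. Alternatives were DESeq2 1.42.0, limma-voom (limma 3.58.1), other scalings and filters, the replicate number as a block, sex, each library left out, and a threshold of 0.01.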

Additional observations from a re-analysis of the deposited data

How the results depend on the processing

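The rise of Sox9 and the fall of Hes5 kept their call in every alternative fit, and Sox8, Sox2 and Nfib lost theirs in 7, 2 and 1 of 14. At an adjusted p under 0.01, 2 of the 9 genes were higher and 1 lower, against 1116 higher and 647 lower of all genes. With no filter on low counts 2 of the 9 were lower, Hes5 and Nfix, against 1742 of the 30543 genes tested in that fit. Leaving out 1 library gave 2 to 4 higher and 1 lower of the 9, and 1237 to 2097 higher and 761 to 1734 lower of all genes. All genes gave 1237 higher and 769 lower without normal library 3, 761 lower without OIR library 1 and 860 lower without OIR library 2. Without normal library 3 the 2 that stayed were Sox9 and Nfib, and without OIR library 1 they were Sox9 and Sox2. The replicate block gave 3 higher and 1 lower of the 9 and 1680 and 1166 of all genes; Sox8 was lost (adjusted p = 0.0595) and no other call among the 9 changed. Same-numbered deviations correlated at 0.061, −0.164 and 0.074. Same-numbered libraries were of opposite sex and each group held 3 libraries, so whether the numbers pair the samples cannot be told.

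Signs turned as follows. Against Müller markers, Nfix was 0.29 higher with their median and 0.13 higher with Rlbp1, Glul and Slc1a3 alone. Leaving out 1 library moved Hes1 against those markers between −0.0103 (without normal library 2) and 0.0918, with −0.0003 without OIR library 2. It moved Lhx2 between −0.0306 (without normal library 2) and 0.122, with −0.0019 without normal library 3 and −0.0057 without OIR library 3. It moved Sox8 minus Sox2 between −0.197 and 0.0895, and Nfia between −0.0923 and 0.016, both turning without OIR library 2. The cause was not tested. Sox9 minus Sox2 ran from 0.39 to 0.63 and Hes1 minus Hes5 from 1.13 to 1.26. Hes5, with the fewest counts, is the least precise of the 9.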

Other observations

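Progenitor genes that act beside the 9 did not move one way. Of 17 listed retinal progenitor genes, 15 were tested; 4 rose and 5 fell. The intermediate filament gene Nes was at 11.3 ± 3.04 CPM in normal and 79.4 ± 18.8 CPM in OIR retina (SD, n = 3), 6.99-fold higher. The cyclin gene Ccnd1 was 2.82-fold higher, at 23.5 ± 0.906 and 66.3 ± 5.71 CPM, while the homeobox genes Six6 and Prox1 fell by 0.56 and 0.43 on the log2 scale. Among 6 tested proneural genes, Neurog2 was 5.01-fold higher, at 4.84 ± 1.04 and 24.3 ± 2.87 CPM, and Neurod4 fell by 0.37 on the log2 scale. Neurod1 and Insm1 did not pass, with log2 fold changes of 0.24 and 0.19, and Olig2 had no counts in any library. Nes is also an endothelial and astrocyte gene, and the part of those cells was not tested.

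The ID repressors, which block basic helix-loop-helix factors, did not move together: Id1 rose 1.51-fold, Id2 fell by 0.63 on the log2 scale, and Id3 and Id4 had log2 fold changes of 0.03 and −0.08. Proliferation genes rose in 7 of 10 cases, with Mki67 at 0.433 ± 0.117 and 9.68 ± 4.11 CPM. Of 10 genes of cell cycle exit, 4 rose and 1 fell: the CDK inhibitor genes Cdkn1a and Cdkn2c were 4.44-fold and 2.04-fold higher, Btg2 1.41-fold higher, and Gas1 fell by 0.38 on the log2 scale. Ganglion cell markers passed in 0 of 8 cases. Their summed level was 993 to 1604 CPM in normal and 1048 to 1142.5 CPM in OIR libraries. The normal libraries were thus widely spread, which limits what the lack of calls shows. Oligodendrocyte markers rose in 1 of 5 tested (Cnp).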
